A study of Mus musculus with 4 samples.

Results

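The probes examined here are those for mouse miRNAs with registry numbers of 1000 or more, miR-1224 left out, together with the probe for miR-720. They were 111 of the 566 mouse miRNA probes on the panel and of 618 probes in all. The rule goes by name with no cut on a measured value, but was set with earlier results of these data known. The study measured miRNAs by digital probe counting (nCounter miRNA assay of NanoString) in total RNA of 2 normal livers and 2 liver tumours. Per the labels, the mice were NF2fl/fl females, so all carried the floxed alleles. They received either PBS or the virus AAV2/8-Cre (product AV-8-PV1091), whose Cre recombinase was to delete NF2 in hepatocytes alone. NF2 encodes merlin, a tumour suppressor. Livers were examined 50 weeks after administration, and the protocol states 3 mice without dividing them between treatments. The labels do not say whether the normal tissue came from the PBS mice or from separate animals, so p-values reflect only how far these samples scatter, and that scatter may be technical.

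MicroRNAs are short RNAs cut from hairpin precursors that lower the output of messenger RNAs, mainly through pairing of a seed near their 5′ end. Registry numbers follow the order of submission, so high numbers mark later entries, many of them found by deep sequencing as rare reads. Some such entries were later withdrawn because their reads matched transfer RNA or ribosomal RNA. Human miR-720 was withdrawn as a fragment of a threonine transfer RNA, and human miR-1274a matches a lysine transfer RNA.

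Mature sequences under the exact name were found in RefSeq (build GRCm38.p6) for 53 of the 113 miRNAs that the 111 probes name. Sequences matched 5 of the 13 probes that were above the negative controls in all 4 samples. These 5 are shown first, then 4 members whose counts passed the controls in some samples only. The last pair is miR-1961 with let-7a-5p, whose seed it shares. Capitals mark the seed, bases 2 to 8.
miR-1902: aGAGGUGCaguaggcaugacuu
miR-1951: gUAGUGGAgacugguguggcua
miR-1839-5p: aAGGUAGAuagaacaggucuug
miR-2139: aGCUGCGCugcuccugguaacugc
miR-3471: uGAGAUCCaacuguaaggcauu
miR-3472: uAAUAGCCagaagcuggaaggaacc
miR-1953: uGGGAAAGuucucaggcuucug
miR-1983: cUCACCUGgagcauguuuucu
miR-1903: cCUUCUUCuucuuccugagaca
miR-1961: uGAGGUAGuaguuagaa
let-7a-5p: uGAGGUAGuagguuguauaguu

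On GRCm38.p6, miR-1902 lies at chr2:104428871-104428892 on the minus strand, within Hipk3, a kinase gene. MiR-1951 lies at chr2:115638777-115638798 on the plus strand, within the protein-coding gene BC052040. MiR-1839-5p lies at chr7:81529919-81529940 on the plus strand, in the lncRNA gene 2900076A07Rik. MiR-2139 lies at chr4:139967531-139967554 on the minus strand, within Klhdc7a, and miR-3471 at chr4:10845585-10845606 on the minus strand, outside protein-coding genes. MiR-3472 lies at chrX:145039390-145039414 on the plus strand, within Rtl4, a gene derived from a retrotransposon. MiR-1903 lies at chr8:128359251-128359272 on the plus strand, within Nrp1, a receptor gene, and miR-1953 at chr2:151967581-151967602 on the minus strand. MiR-1983 lies at chr13:21896930-21896950 on the minus strand, and its hairpin overlaps the transfer RNA gene n-TItat14. MiR-1961 lies at chr5:92788465-92788481 on the minus strand within Shroom3, and the let-7a-5p copy printed lies at chr13:48538239-48538260 on the minus strand.

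The deposited values were probe counts multiplied by 1 factor per sample, 2.09 and 2.30 in normal livers 1 and 2 and 0.395 and 0.905 in tumours 1 and 2, and the counts were recovered from them. Mouse miRNA probes summed to 68260 and 62054 counts in normal livers 1 and 2, and to 239727 and 123818 in tumours 1 and 2. A probe was taken as above the negative controls where its count passed a threshold set per sample, the mean of the 6 negative controls plus 2 of their SDs. The threshold was 18.3 and 11.2 counts for normal liver and 17.6 and 14.9 for tumour. In deposited values the same thresholds stood at 38.2 and 25.6 for normal liver and 6.95 and 13.5 for tumour, so background is scaled to a higher value in the normal livers. Of the liver cell markers, the 6 hepatocyte miRNAs (miR-122 and others) were all called lower in the tumours, with a summed value of 32669 and 36679 against 15385 and 19674. The 3 epithelial or cholangiocyte miRNAs were called higher (148 and 177 against 1277 and 1244), as were 2 of 5 stellate miRNAs (1141 and 958 against 2428 and 1455). In the leukocyte list 2 of 5 were called lower (1114 and 1453 against 865 and 776), in the endothelial list 1 of 2 (5229 and 4599 against 3879 and 4116), and of 3 erythroid miRNAs none was called (1570 and 1300 against 1720 and 1843). These calls are on the deposited scale, where 46.7% of all tested probes were called lower. With counts scaled to equal positive controls, limma called 1 hepatocyte miRNA lower and 3 epithelial, 2 stellate, 1 leukocyte and 2 erythroid miRNAs higher. No marker was below the controls in all samples. Their part in the results was not tested, and in tissue samples fewer cells of a type and less RNA per cell cannot be told apart.

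Most late-numbered probes gave little or no count above background in these livers. Of the 111 members, 18 and 43 passed the threshold in normal livers 1 and 2, and 48 and 27 in tumours 1 and 2. In all, 13 members (11.7%) passed it in all 4 samples, and 53 (47.7%) passed it in none. Among the 455 mouse miRNA probes that are not members, 123 (27.0%) were above in all 4 samples and 161 (35.4%) in none. These include the 38 probes for miR-680 to miR-719 and miR-762, which passed less often than the members. Of the 38, 3 (7.89%) were above in all 4 samples and 26 (68.4%) in none. Among the 33 probes for miRNAs of mouse herpesviruses, an infection the labels do not mention, 2 (6.06%) were above in all 4 samples and 19 (57.6%) in none.

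The shares by sample followed the same order of samples in members and non-members. The share of members above the threshold was 16.2% and 38.7% for normal liver and 43.2% and 24.3% for tumour. Non-members reached 31.9% and 50.3%, then 57.8% and 40%. The viral probes gave 15.2%, 27.3%, 36.4% and 6.06% in the same sample order. In each class normal liver 2 exceeded normal liver 1 and tumour 1 exceeded tumour 2, and the ranges of the 2 groups overlapped. For the members this order held with the mean plus 3 SD of the negative controls (13, 35, 35 and 21 members above). It also held with the highest negative control as threshold (25, 51, 48 and 28). With the mean plus 2 SD of the viral probes as threshold, 11 and 10 members passed in normal liver and 9 and 12 in tumour. There the order within both groups turned.

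**Figure D1:**
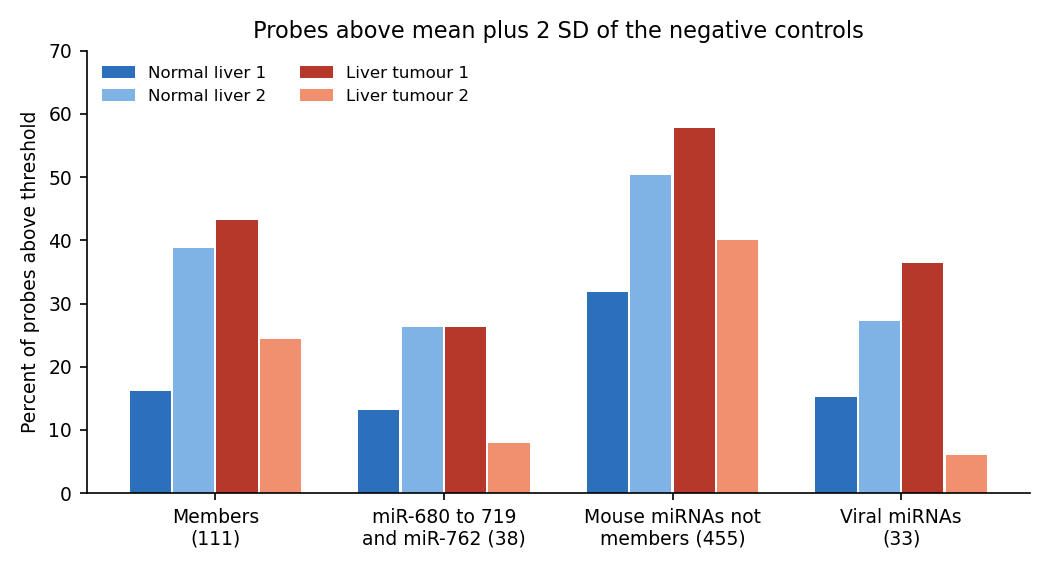
Percent of probes (vertical axis) with a count above the sample's threshold (mean of the negative controls plus 2 SD), for 4 probe classes and 4 samples; the 455 non-members include the 38 probes for miR-680 to miR-719 and miR-762. Members ranged from 16.2% to 43.2%, below the non-members in every sample.

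Members near the threshold were separated by a few counts, judged in each group by the sample in which the count was lower against its threshold. In the normal livers, miR-1903 (1.07 times the threshold), miR-3471 (1.09) and miR-3472 (1.15) were the nearest above. The nearest below were miR-2140 and miR-1188 (0.985), then miR-1942, miR-1959, miR-2183, miR-1306 and miR-1929, tied at 0.982. In the tumours, miR-3099 and miR-1940 (1.01) were the nearest above, then miR-1196 and miR-2146, tied at 1.07. The nearest below were miR-1186b (0.873), then miR-2140, miR-2141 and miR-1894-3p, tied at 0.806.

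The 53 members above the controls in no sample had 1 to 17 counts in normal liver 1, 1 to 11 in normal liver 2, 4 to 17 in tumour 1 and 1 to 12 in tumour 2. Their median counts were 6, 6, 10 and 5. This group held miR-2861, known in mouse osteoblasts for lowering the histone deacetylase Hdac5, with 6, 7, 12 and 5 counts. It also held miR-1961, whose 17 bases share the first 11 with let-7a-5p, of the let-7 family known for restraining growth and stem cell genes. MiR-1961 gave 11, 10, 9 and 5 counts. The let-7a probe gave 1412, 1253, 5315 and 2238 counts, and let-7c 1678, 1247, 11674 and 4912. Probe counts for miR-1961 thus stayed at background beside abundant miRNAs with the same seed.

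Sequence composition was compared where a mature sequence was available. The 53 matched members were 17 to 26 bases long with a median of 22. Their median GC content was 56.5% (27.3% to 94.7%), against 50% for 145 other panel miRNAs. It was 54.5% for the 22 matched members above the controls in any sample and 59.1% for the 31 above them in none. Hairpins were found for 69 members' names on 18 chromosomes, and 49 overlapped a protein-coding gene. Of these hairpins 4 lie in the imprinted Dlk1-Dio3 region of chromosome 12 (miR-1188, miR-1193, miR-1197 and miR-3072), and each was above the controls in at most 1 sample. The 4 are those with a hairpin found and not a full count of members in the region. MiR-1906, with no hairpin found, has a mature copy at chr12:109544588-109544609 and another on chromosome X, and its probe was above the controls in no sample.

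A single probe, miR-720, made up most of the members' signal. Its probe gave 12679 and 10326 counts in normal liver and 21840 and 22659 in tumour. It ranked first among mouse miRNA probes in normal liver 1 and tumour 2 and next after the hepatocyte miRNA miR-122 in the others. As a share of mouse miRNA counts this was 18.6% (95% Wilson interval 18.3% to 18.9%), 16.6% (16.3% to 16.9%), 9.11% (8.996% to 9.23%) and 18.3% (18.1% to 18.5%), where intervals cover counting error only. Tumour 1 was low and tumour 2 lay between the normal livers, so the groups overlapped. The group means were 17.6% ± 1.37 (SD, n = 2) in normal liver and 13.7% ± 6.50 (SD, n = 2) in tumour. The ratio of miR-720 to miR-122 was 1.08 and 0.815 for normal liver and 0.690 and 1.25 for tumour, again with overlap.

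All 111 members together took 23.0% and 21.2% of all mouse miRNA counts for normal liver and 13.6% and 25.3% for tumour. Without miR-720 the other 110 took 4.46%, 4.51%, 4.46% and 6.97%. In tumour 1 the other members took the same share as in normal liver 1, so the lower total there was that of miR-720. The 4 most abundant probes, miR-720, miR-1937a+miR-1937b (1 probe for both names), miR-1937c and miR-1944, held 91.6%, 90.1%, 90.7% and 95.2% of the members' counts.

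**Figure D2:**
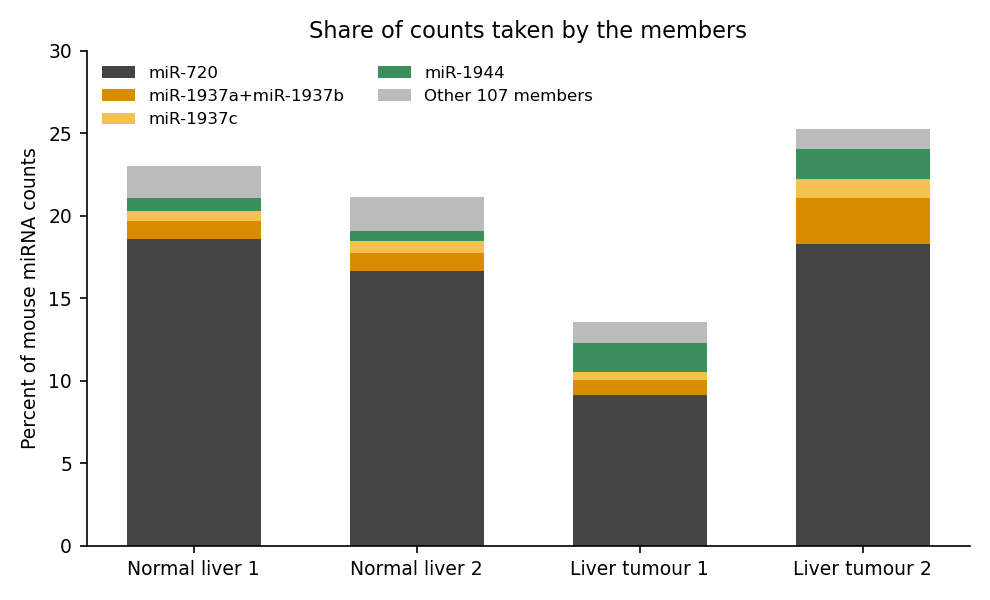
Percent of mouse miRNA counts (vertical axis) taken by miR-720, the next 3 most abundant members and the other 107 members, stacked for each sample. The stacks reach 23.0%, 21.2%, 13.6% and 25.3%, and miR-720 is the largest segment of each.

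The 2 probes for the miR-1937 group ordered the samples alike at both ends. The miR-1937a+miR-1937b probe gave 764 and 683 counts in normal liver and 2278 and 3422 in tumour, or 1.12%, 1.10%, 0.950% and 2.76% of mouse miRNA counts. MiR-1937c gave 397, 451, 1163 and 1406 counts, or 0.582%, 0.727%, 0.485% and 1.14%. Tumour 2 had the highest share for both and tumour 1 the lowest. The ratio of the former probe to the latter was 1.92, 1.51, 1.96 and 2.43, and whether the probes also bind each other's target was not tested. Relative to miR-720, the miR-1937a+miR-1937b count was 6.03% and 6.61% for normal liver and 10.4% and 15.1% for tumour. For miR-1937c it was 3.13% and 4.37% against 5.33% and 6.21%. Both tumours therefore exceeded both normal livers in these ratios.

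MiR-1944 differed from the abundant members named so far in standing higher in both tumours on every scale printed here. It gave 562 and 370 counts in normal liver and 4215 and 2298 in tumour, or 0.823% and 0.596% against 1.76% and 1.86% of mouse miRNA counts. Its rank among mouse miRNA probes was 22 and 29 for normal liver and 14 and 12 for tumour. Relative to miR-720 it was 4.43% and 3.58% against 19.3% and 10.1%.

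**Figure D3:**
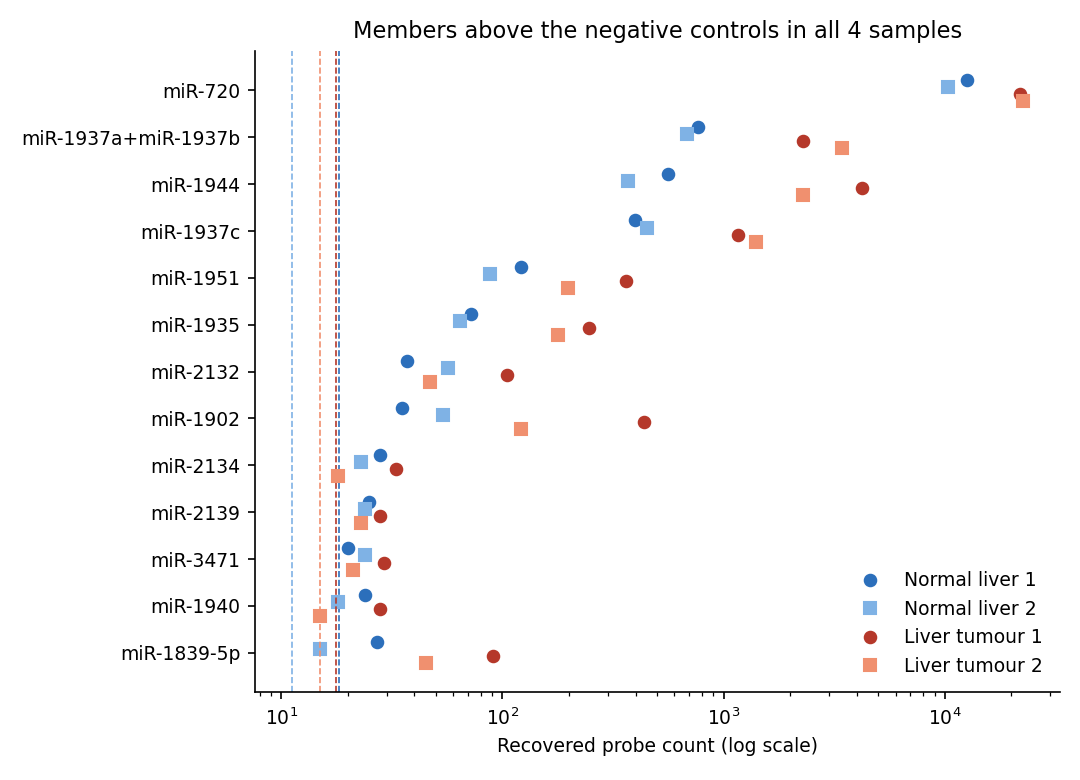
Recovered probe count on a log scale (horizontal axis) for the 13 members above the negative controls in all 4 samples, 1 point per sample; dashed lines in the sample's colour mark its threshold (18.3, 11.2, 17.6 and 14.9 counts). MiR-720 stands at 10326 to 22659 counts, whereas miR-2134, miR-2139, miR-3471 and miR-1940 lie within 15 to 33 counts.

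The comparison of liver tumours with normal liver tissue was tested with limma on log2(deposited value + 1). Probes entered the test where their log2 value, averaged over samples, was above 3.925 (scaled negative controls, mean plus 2 SD). This kept 276 mouse miRNA probes, among them 40 members, and p-values were adjusted over all 276 by Benjamini-Hochberg, and a call needs an adjusted p under 0.05. Each difference subtracts normal liver from tumour on this scale, and the added 1 makes those of low probes smaller. Of the 40 members kept, 13 were above the controls in all 4 samples and 1, miR-1892, in none. The 71 not kept were not tested.

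On this scale 23 members were called lower, 1 was called higher and 16 were not called. Over all kept mouse miRNA probes 46.7% were called lower and 7.97% higher, against 57.5% and 2.5% of the members kept, so calls of a fall were common across the whole panel. Groups did not overlap for 31 of the 40 members (77.5%), against 79.7% of all kept probes. The median difference was -1.16 for the members kept and -0.90 for all kept probes. Among probes above the controls in all 4 samples the medians were -0.50 and -0.31. Over all probes of a class, kept or not, the median difference was -1.35 for members, -1.08 for non-members and -1.75 for the viral probes, 32 of 33 of which were below 0.

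The calls depended on how the samples were scaled. With counts scaled to equal positive controls, limma called 1 member lower (miR-1893) and 2 higher (miR-1902 and miR-1944), where 2.17% and 12.7% of all kept probes were called lower and higher. With the quasi-likelihood test of edgeR on counts, 10 members were called lower and 3 higher (miR-1902, miR-1944 and miR-2133), against 14.1% and 25.7% of all kept probes. DESeq2 on the counts called miR-1893 lower and the same 2 members higher as equal positive controls did, against 4.35% and 19.2%. The median of all kept probes moved from -0.90 to 0.096 with equal positive controls and to -0.033 with edgeR, and the members' median to -0.18 and -0.36. Relative to the panel median, members thus stood at -0.26, -0.27 and -0.33. This gap was smaller after background subtraction (-0.14), with quantile normalization (-0.065) and with pseudocounts of 10 (-0.12) and 30 (-0.019). Among probes above the controls in all 4 samples it was -0.19. The gap thus varied with the setting, and the reason was not tested. The 7 other scalings tried were equal positive controls, edgeR, DESeq2, equal medians, quantile normalization and equal totals with or without miR-720. No call of a fall held under all 7, since limma after quantile normalization called 0 members lower (8 at an unadjusted p below the threshold). In fits with a sample left out, the lone sample of its group is assumed to vary like the other group. The lone sample adds no spread of its own, and limma pools the other group's spread over all kept probes. Without normal liver 1, 11 of the 23 calls of a fall were lost, and 15 without normal liver 2, against 2 without tumour 1 and 1 without tumour 2.

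MiR-720 was not called different between tumour and normal liver. Its deposited values were 26443 and 23711 for normal liver and 8628 and 20508 for tumour. Both tumours lay below both normal livers on that scale, with means of 25077 ± 1932 and 14568 ± 8401 (SD, n = 2 each). The log2 difference was -0.91 (SE 0.43, limma adjusted p = 0.115). An exact two-sided permutation test gave p = 0.333, the smallest that 2 against 2 samples allow. The direction turned with edgeR on the counts (0.065, adjusted p = 0.908) and with equal positive controls (0.12, limma adjusted p = 0.918). Without tumour 1 the difference was -0.29. Without tumour 2 it was -1.54, so the result rests on which tumour is used.

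MiR-1944 was the member called higher, 1.86-fold in deposited values. These were 1172 and 850 for normal liver and 1665 and 2080 for tumour, with no overlap and means of 1011 ± 228 and 1872 ± 293 (SD, n = 2 each). The log2 difference was 0.90 (SE 0.29, limma adjusted p = 0.0405). It was 1.74 with edgeR (adjusted p = 0.00065) and 1.93 with equal positive controls (limma adjusted p = 0.0062). The call held under 6 of the 7 other scalings and was lost with quantile normalization (1.12, limma adjusted p = 0.0684). Background subtraction (0.92, limma adjusted p = 0.1495) and testing with no filter (limma adjusted p = 0.069) also ended it. It was also lost without normal liver 1, without normal liver 2 or without tumour 2, with differences of 0.67 to 1.13.

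MiR-1902 had deposited values of 73.0 and 124 in normal liver and 173 and 110 in tumour, so the groups overlapped (0.53, SE 0.37, limma adjusted p = 0.267). In counts it gave 35 and 54 against 438 and 121, with both tumours above both normal livers. Calls of a rise came from edgeR (1.40, adjusted p = 0.010), DESeq2 (adjusted p = 0.0052), equal positive controls (1.55, limma adjusted p = 0.0348) and equal medians (1.34, limma adjusted p = 0.0267). The count of tumour 1 was the highest.

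The miR-1937 probes did not pass the test. MiR-1937a+miR-1937b stood at 1593 and 1568 against 900 and 3097, and the tumours lay on either side of the normal livers (0.079, SE 0.56, limma adjusted p = 0.915). MiR-1937c stood at 828 and 1036 against 459 and 1273 (-0.28, limma adjusted p = 0.658). Without tumour 1, miR-1937a+miR-1937b differed by 0.97, where a single tumour stood against 2 nearly equal normal livers (SD 17.7).

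Of the less abundant members above the controls throughout, 3 more did not pass the test. MiR-1951 had 122 and 88 counts in normal liver and 363 and 198 in tumour, or deposited values of 254 and 202 against 143 and 179 (-0.50, limma adjusted p = 0.170). MiR-1935 had 72 and 64 counts against 247 and 178, or 150 and 147 against 97.6 and 161 in deposited values (-0.24, limma adjusted p = 0.555). MiR-1839-5p had 27 and 15 counts against 91 and 45, or 56.3 and 34.4 against 36.0 and 40.7 in deposited values (-0.20, limma adjusted p = 0.625). For these 3 and for miR-1937c the tumours were higher in counts, and the fitted difference was above 0 with edgeR, equal medians and equal positive controls. None of them was called under those settings.

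The 5 members called lower and above the controls in all 4 samples had their normal liver and tumour counts overlap, while their deposited values did not. MiR-2134 had 28 and 23 counts in normal liver and 33 and 18 in tumour, which became 58.4 and 52.8 against 13.04 and 16.3 in deposited values (-1.86, limma adjusted p = 0.0034). MiR-1940 had 24 and 18 counts against 28 and 15 (-1.81, limma adjusted p = 0.0034). MiR-2139 had 25 and 24 against 28 and 23 (-1.75, limma adjusted p = 0.0076). These 3 stayed at or below 33 counts in every sample. MiR-3471 had 20 and 24 counts against 29 and 21 (-1.63, limma adjusted p = 0.0081). A count equal in all samples gives lower deposited values in the tumours (factors of 0.395 and 0.905 against 2.09 and 2.30). Tumour values of miR-2134, miR-1940, miR-2139 and miR-3471 lay under both scaled thresholds of normal liver (38.2 and 25.6). No fall in level is read from the calls of these 5 members. MiR-2132, the brightest of the 5, had 37 and 57 counts against 105 and 47 (-1.24, limma adjusted p = 0.019), and its call was lost without normal liver 2. The call of miR-2139 was lost without either normal liver, and that of miR-3471 likewise.

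**Figure D4:**
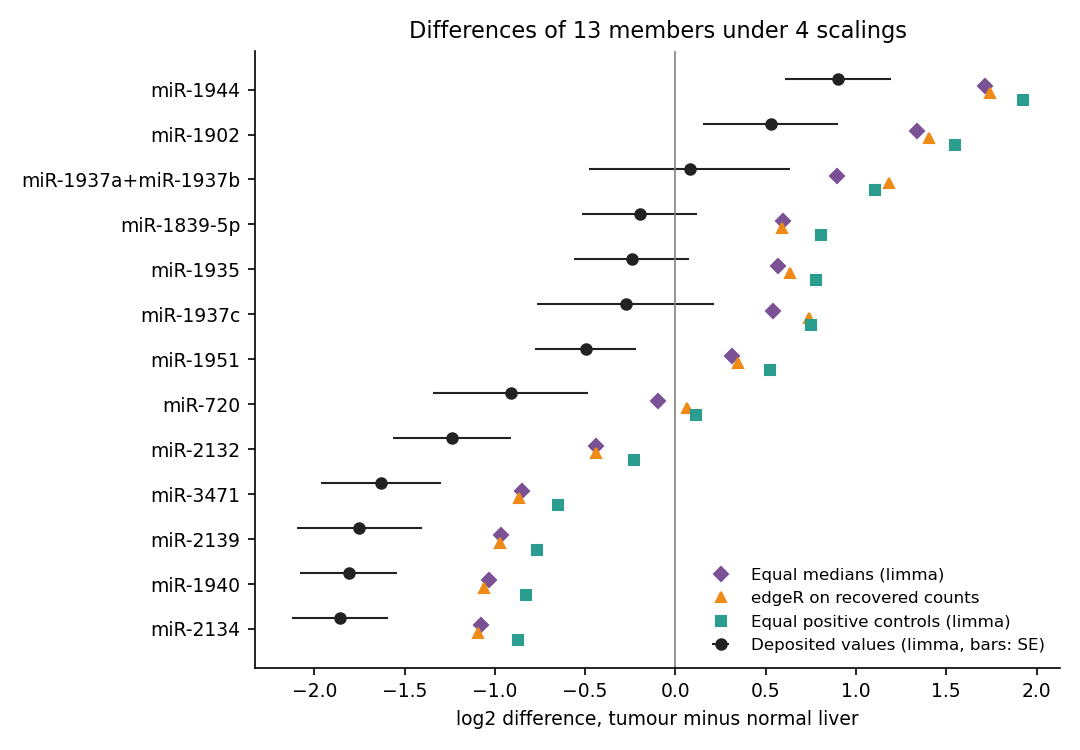
Log2 difference, tumour minus normal liver (horizontal axis), for the 13 members above the controls in all 4 samples under 4 ways of scaling; black points are the deposited values with SE bars. MiR-1944, miR-1902 and miR-1937a+miR-1937b are above 0 under all 4, and miR-2134, miR-1940, miR-2139, miR-3471 and miR-2132 are below 0 under all 4; miR-1839-5p, miR-1935, miR-1937c, miR-1951 and miR-720 cross 0.

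Among members above the controls in 3 samples, miR-1893 had the lowest difference. Its counts were 33 and 22 in normal liver and 33 and 5 in tumour, so the count of tumour 1 equalled that of normal liver 1 (-2.77, limma adjusted p = 0.0042). The call held under 6 of the 7 other scalings, not with quantile normalization, with -1.79 and a limma adjusted p of 0.012 at equal positive controls. It was lost without either normal liver. For miR-1893 and miR-3472 the tumours' deposited values lay under both scaled thresholds of normal liver (38.2 and 25.6). Their differences in deposited values are thus no measure of the size of a fall. MiR-3472, whose sequence is printed above, had 21 and 18 counts against 28 and 8 (-2.13, limma adjusted p = 0.0034). Its call passed in all 4 fits with a sample left out, under the assumption given above. The same was true of miR-2134, miR-1940, miR-1929, miR-3470a+miR-3470b and miR-1839-3p, the last 3 of which were above the controls in 2 samples or fewer.

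MiR-1306, whose hairpin lies in Dgcr8, the gene of the RNA-binding partner of Drosha in miRNA processing, had 18 and 25 counts against 41 and 20 (-1.39, limma adjusted p = 0.0097). MiR-1959 had 18 and 26 against 32 and 19 (-1.62), miR-2146 17 and 12 against 34 and 16 (-1.11), and miR-2183 18 and 26 against 51 and 30 (-0.99, limma adjusted p = 0.043). All 4 were called lower in deposited values and had their highest count in tumour 1. Apart from miR-2183 in tumour 2, their tumour values lay under both scaled thresholds of normal liver (38.2 and 25.6). No fall in level is read from these calls. Each lost its call without at least 1 normal liver.

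The other members above the controls in 3 samples did not pass the test. MiR-1274a had 8 and 21 counts in normal liver and 28 and 40 in tumour (-0.48, SE 0.66), and miR-1953 11 and 16 against 31 and 21 (-0.88, limma adjusted p = 0.071). MiR-2135 had 12 and 14 against 44 and 29, and miR-1198, from the Gripap1 gene, 8 and 17 against 43 and 22. MiR-1191 had 6 and 14 against 23 and 19, and miR-1196 8 and 12 against 42 and 16. In each of the 6 both tumours had more counts than both normal livers, while the deposited values gave differences below 0.

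In both tumours and neither normal liver, 4 members were above the controls. The tumours summed to more mouse miRNA counts (239727 and 123818 against 68260 and 62054), so this pattern can depend on depth. Its share over all mouse miRNA probes is not given here. MiR-1983, whose hairpin overlaps a transfer RNA gene, had 14 and 11 counts in normal liver and 33 and 21 in tumour, and was not called (limma adjusted p = 0.068). MiR-2133 had 7 and 6 against 39 and 21 and was not called in deposited values (limma adjusted p = 0.438). It was called higher with edgeR (adjusted p = 0.049), equal medians (limma adjusted p = 0.028) and background subtraction (limma adjusted p = 0.046). MiR-1949 had 7 and 2 against 37 and 17 and was not kept. MiR-3099, from the Usp29 gene, had 12 and 10 against 36 and 15, yet it was called lower in deposited values (limma adjusted p = 0.044). Its sign turned with equal medians, equal positive controls, quantile normalization, background subtraction, edgeR and DESeq2. No fold or difference on the deposited values is given for these 4, since the normal livers were below the controls and their scaled threshold exceeded the tumours' values. Differences of miR-3099 under other settings are given below for their sign only.

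Conversely, miR-1903 was above the controls in both normal livers and neither tumour. It had 20 and 12 counts against 10 and 9 (fitted difference in deposited values -2.38, limma adjusted p = 0.0036). The normal livers' deposited values stood 3.50-fold above the tumours' thresholds. That ratio is no lower bound on a fall in level, since it takes the normal livers at their full values, background included. Background itself is scaled to a higher value in the normal livers. The call held under 4 of the other scalings, edgeR among them (-1.80, adjusted p = 0.012). It was lost with equal positive controls (-1.44, limma adjusted p = 0.054), DESeq2 (adjusted p = 0.092) and quantile normalization (-1.06, limma adjusted p = 0.188). The call for miR-1903, whose sequence is printed above, was lost without normal liver 1.

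The remaining calls of a fall came from members above the controls in 2 samples or fewer. These were miR-1929 (18 and 17 counts against 20 and 11), miR-1942 (18 and 16 against 45 and 11), miR-1187 (16 and 14 against 22 and 5) and miR-3470a+miR-3470b (16 and 14 against 18 and 6). MiR-2140 had 19 and 11 counts against 20 and 12, miR-2141 12 and 15 against 34 and 12, and miR-1900 11 and 12 against 26 and 10. MiR-1839-3p, the partner strand of miR-1839-5p, had 14 and 16 against 17 and 7. MiR-1894-3p had 12 and 10 against 21 and 12, and miR-1892 17 and 11 against 14 and 11. Their differences ran from -2.22 to -1.22, and apart from tumour 1 their counts did not exceed 19. They passed the filter on deposited values in which background itself stands higher in the normal livers (thresholds of 38.2 and 25.6 against 6.95 and 13.5), so no fall in level is read from these calls. Of the 23 calls of a fall, 8 concerned members above the controls in both normal livers.

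Among members above the controls in both samples of neither group, the highest counts were those of miR-1942 (45 in tumour 1), miR-2141 (34), miR-1963 (27), miR-1900 (26) and miR-1962 (24), all in tumour 1. By group pattern, 9 members were above in 1 tumour and no normal liver, 9 in 1 normal liver and no tumour, and 10 in 1 of each. A further 10 were above in 1 normal liver and both tumours, and 2 in both normal livers and 1 tumour. The shares of all probes with these patterns are not given here, and the patterns can depend on depth.

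MiR-720 and the miR-1937 probes differed more between the 2 tumours than between the groups. In deposited values tumour 2 exceeded tumour 1 by 3.44-fold for miR-1937a+miR-1937b, 2.77-fold for miR-1937c and 2.38-fold for miR-720. These were the 3 highest of the 136 mouse miRNA probes above the controls in all 4 samples, whose median log2 difference was 0.033. The next were miR-741 (log2 difference 1.15) and miR-202-5p (1.04), then the member miR-2139 (1.88-fold). Between the normal livers the same members differed by 0.984-fold, 1.25-fold and 0.897-fold, normal liver 2 over normal liver 1. The tumours' ranks are a description of 2 samples, with no test. MiR-1944 was 1.25-fold higher in tumour 2, and miR-1902 went the other way at 0.633-fold.

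**Figure D5:**
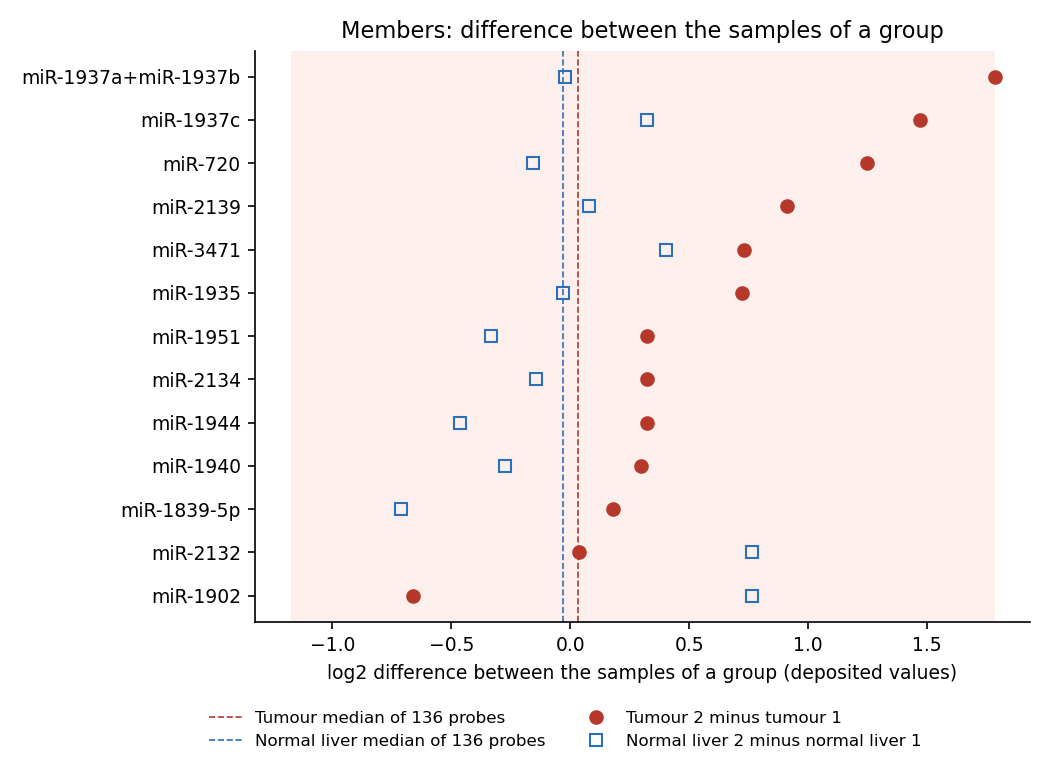
Log2 difference between the 2 samples of a group in deposited values (horizontal axis) for the 13 members above the controls in all 4 samples; filled circles are tumour 2 minus tumour 1, open squares normal liver 2 minus normal liver 1, dashed lines the medians of 136 probes and the shaded span their tumour range. MiR-1937a+miR-1937b, miR-1937c and miR-720 lie at 1.78, 1.47 and 1.25 for the tumours, the 3 highest of the 136 probes.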

How the data were processed

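Per the labels, total RNA was extracted with TRIzol and measured with the nCounter miRNA assay of NanoString. The deposited signal values were probe counts that the authors multiplied by 1 factor per sample. Negative, positive and plant or worm control probes carry no factor. What set the factor, and in which software, is not given in the sources used here. Counts were recovered by dividing by the factor, and 100% of 603 scaled values per sample came out whole within 0.1 count.

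The members and lists were chosen with earlier results of these data known. Text names miR-720, members above the negative controls in all 4 samples or in both of a group, members called by limma, the 3 nearest the threshold on each side in each group, and the 5 with the highest count among those above the controls in both samples of neither group. Ties are named too. MiR-1961, miR-2861, miR-1906 and the 4 members with a hairpin found in the Dlk1-Dio3 region were named after their values were seen. Sequences and positions are from RefSeq, GRCm38.p6.

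Tests used limma 3.58.1 (two-sided, 2 against 2 samples, no block) in R 4.3.3, with edgeR 4.0.16 and DESeq2 1.42.0 as alternatives, beside other scalings, filters, pseudocounts and each sample left out. The scripts were also run on simulated counts with planted differences and a set depth. That run does not test the deposited scaling or the scatter between these tumours. The main test did not pair samples by replicate number. Deviations of same-numbered samples correlated at r = 0.0421 over 276 probes. With 2 samples per group this is a single correlation, which cannot show whether samples were paired or shared a batch. Samples of 1 group differed beyond counting noise, with a chi-square of 3.23 per probe between normal livers (324 probes) and 34.0 between tumours (387 probes). Intervals cover counting error only.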

Additional observations from a re-analysis of the deposited data

How the results depend on the processing

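The count of members called lower, 23 on the deposited values, was 1 with equal positive controls, 10 with equal medians, 14 with equal totals, 5 among probes above the controls in all 4 samples, 12 among those above in both samples of a group, 65 of 111 with no filter, 1 after background subtraction, 10 with edgeR and 1 with DESeq2. With quantile normalization limma called 0 lower, where 8 had an unadjusted p below the threshold. The count called higher, 1, was 2 with equal positive controls, 3 with equal medians, 3 with edgeR, 2 with DESeq2 and 0 (limma) with no filter, where 1 had an unadjusted p below the threshold. After background subtraction it stayed 1, but miR-2133 took the place of miR-1944. Shares of all tested probes called are given above for the deposited values, equal positive controls, edgeR and DESeq2. For the other settings they are not given, so those counts cannot be set against the panel. Leaving out each sample gave 8 to 26 lower and 0 to 2 higher, with 0 to 2 higher by unadjusted p.

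The log2 difference of miR-720 turned to 0.12 with equal positive controls, 0.065 with edgeR and 0.052 with DESeq2, and ran from -1.54 to -0.29 with each sample left out. With the replicate number as a block it stayed at -0.91 and passed the threshold (limma adjusted p = 0.0335), while 25 members were called lower and 1 higher. The labels do not say whether same-numbered samples are linked. The median of the members kept was -0.18 with equal positive controls, -0.39 with equal medians, -0.086 with quantile normalization, -0.72 with equal totals, -0.78 with equal totals without miR-720, -1.35 with no filter, -0.50 above the controls in all 4 samples, -0.75 above in both of a group, -0.82 and -0.49 with pseudocounts of 10 and 30, -0.60 after background subtraction, -0.36 with edgeR and -0.37 with DESeq2. Leaving out each sample gave -1.33 to -0.99. MiR-2183 turned to 0.0094 with equal positive controls. MiR-3099 turned to 0.23 there, 0.027 with equal medians, 0.54 with quantile normalization, 0.48 after background subtraction, 0.076 with edgeR and 0.075 with DESeq2. With quantile normalization miR-1894-3p (0.20), miR-1900 (0.12), miR-2141 (0.11) and miR-2146 (0.19) turned too. The cause was not tested.

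With the viral probes' mean plus 2 SD as threshold, 11, 10, 9 and 12 members were above it, and the order of the samples within each group turned. Without miR-122 in the denominator miR-720 took 21.7% in normal liver. For the 53 members at 1 to 17 counts, a level above background was not detectable at this depth.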
